A study of Mus musculus with 11 samples.

Results

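The miR-148 and miR-152 family comprises miR-148a, miR-148b and miR-152, made from 3 hairpin precursors that each give a 5p and a 3p arm. Its 6 mature arms (mmu-miR-148a-3p, mmu-miR-148a-5p, mmu-miR-148b-3p, mmu-miR-148b-5p, mmu-miR-152-3p and mmu-miR-152-5p, named without the species prefix from here on) were all present among the 1281 mature miRNA names of the count table. The arms were taken by name, but the members were chosen with earlier results of these data known. All 6 passed the filter on low counts together with 382 other miRNAs (388 tested). The material was liver of untreated C57/B6 mice with a telomerase knockout, labelled G4 and described as having short telomeres. The 6 G4 p53-/- libraries came from such mice lacking p53 as well, and the 5 G4 p53+/+ libraries from such mice with p53 intact. Both genotypes therefore carry the telomerase deletion, and telomerase-proficient mice were not analysed here. The labels used here give neither age nor sex, and they do not say that every library comes from an animal of its own, so a p-value refers to the spread among libraries, which may be technical. The study asks which miRNAs depend on p53.

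The libraries held between 1905609 and 6682492 miRNA reads. miR-34a-5p, a direct p53 target, went with the genotype labels: it ran from 3.90 to 12.4 normalised CPM in p53-/- livers and from 42.4 to 120.0 in p53+/+ livers. p53+/+ libraries 1 and 2 lay apart from the rest on the first principal component of the tested miRNAs (26.9% of the variance), and p53-/- library 6 on the second (16.9%). Normalised CPM are counts scaled to a common library total after a trimmed-mean (TMM) correction for composition.

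A mature miRNA guides Argonaute proteins to messenger RNAs, mostly through its seed, bases 2 to 8 from the 5′ end, and lowers their translation and stability. miR-148a is known as an abundant hepatocyte miRNA that represses the cholesterol exporter Abca1 in mouse liver, and it is also abundant in pancreas. In human cells miR-148a, miR-148b and miR-152 are reported to repress DNMT1, the maintenance DNA methyltransferase. None of these target messenger RNAs was measured in the small RNA libraries.

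The mature sequences are shown because the shared seed defines the family and the few other positions tell its members apart. They are given 5′ to 3′ as in RefSeq (GRCm38.p6), which held all 6 members, with the seed in capitals. The last line is miR-130a-3p, a non-member with a shifted copy of the same bases.
miR-148a-3p: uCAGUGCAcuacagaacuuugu
miR-148b-3p: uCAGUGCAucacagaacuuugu
miR-152-3p: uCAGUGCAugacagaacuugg
miR-148a-5p: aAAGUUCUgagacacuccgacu
miR-148b-5p: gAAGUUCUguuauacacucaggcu
miR-152-5p: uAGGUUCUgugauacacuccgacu
miR-130a-3p: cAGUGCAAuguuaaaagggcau

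The 3 3p arms carried the identical seed CAGUGCA, and no other of the 1029 table names with a RefSeq sequence had it. Counted from 1 at the 5′ end of miR-148a-3p, miR-148b-3p differed at 2 of 22 positions, C9U and U10C. miR-152-3p differed from miR-148a-3p at 3 of 21 compared positions, C9U, U10G and U20G. All of these lie outside the seed, so reads of the 3 arms can be told apart only by 2 or 3 bases and their ends. How the counting treated mismatches is not given in the labels, and the levels of the scarcer arms are uncertain to that extent. Among the 5p arms, miR-148a-5p and miR-148b-5p shared the seed AAGUUCU, again with no other name, while the seed of miR-152-5p differed from theirs at 1 of 7 bases.

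The hairpins lie on 3 chromosomes of GRCm38, the build named in the submitters' processing notes. Mir148a is at chr6:51269812-51269910 on the minus strand, where GENCODE M21 annotates no overlapping gene, and the nearest protein-coding gene, Nfe2l3, is 162760 bases away. Mir148b (chr15:103285125-103285221, plus strand) lies in intron 1 of all 4 transcripts of Copz1 that span it. Mir152 (chr11:96850393-96850465, plus strand) lies in intron 1 of all 3 spanning transcripts of Copz2. Copz1 and Copz2 encode paralogous zeta subunits of the COPI coat that forms transport vesicles, and each hairpin lies on the strand of its host gene.

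The family was dominated by a single arm. Levels are in normalised CPM, and since a mature miRNA is read whole they need no correction for length, although adapter ligation can favour some ends over others. miR-148a-3p averaged 29609 ± 5798 normalised CPM in p53-/- livers (SD, n = 6) and 27548 ± 5658 in p53+/+ livers (SD, n = 5), rank 5 among the 388 tested miRNAs. Just above it, miR-21a-5p averaged 31754 ± 9929 normalised CPM in p53-/- livers and 29990.2 ± 11153 in p53+/+ livers, so these neighbours did not differ beyond their spread. Within the family the order of levels was miR-148a-3p, miR-148b-3p, miR-152-3p, miR-148a-5p, miR-152-5p and miR-148b-5p.

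The first 4 places of that order held in each of the 11 libraries. miR-148a-3p had a median of 14.9 times the count of miR-148b-3p, with single libraries between 10.6 and 18.5 times. miR-148b-3p in turn had a median of 4.08 times the count of miR-152-3p (2.82 to 5.17). The major arm of the weakest hairpin still exceeded the minor arm of the strongest: miR-152-3p had a median of 2.06 times the count of miR-148a-5p (1.49 to 3.79). miR-148a-5p exceeded miR-152-5p by a median of 18.2 times. The last places were not fixed, since miR-152-5p was above miR-148b-5p in 8 of 11 libraries, by a median of 1.32 times.

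**Figure D1:**
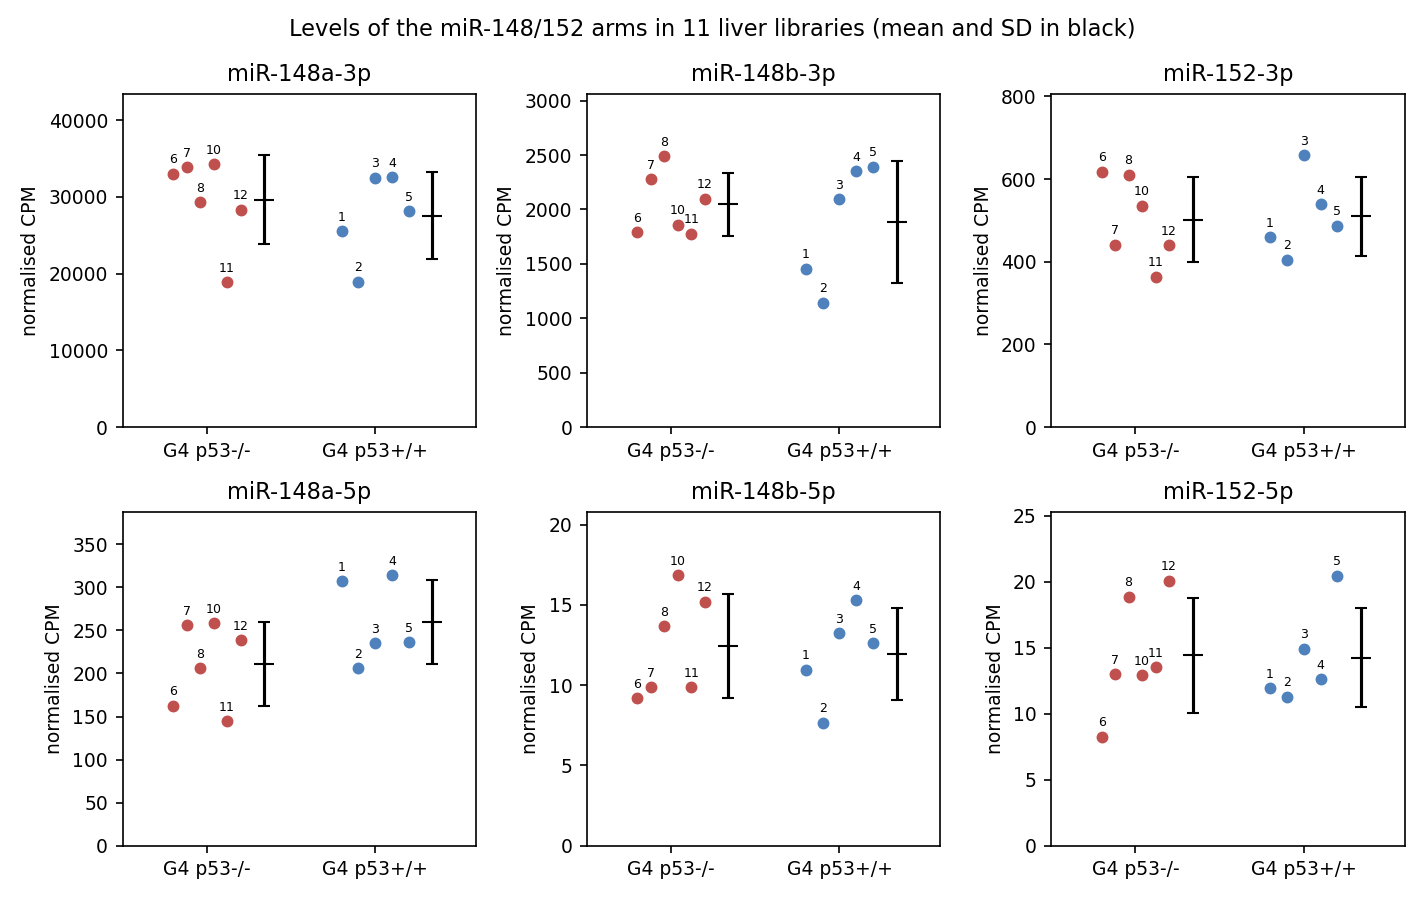
Level of each family arm in normalised CPM (vertical axes from 0, a scale per panel) for p53-/- livers (red, left) and p53+/+ livers (blue, right). Points are libraries with their numbers, and black marks give the mean and SD. Every panel shows overlapping genotypes, and p53-/- library 11 and p53+/+ library 2 are the lowest of their genotype for miR-148a-3p, at 18890.4 and 18978.

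The main comparison asked whether any family arm differs between livers without and with p53. No arm passed: 0 of the 6 arms passed edgeR's quasi-likelihood test at an adjusted p of 0.05, against 0.258% of all tested miRNAs (1 of 388, miR-34a-5p). At an unadjusted p under 0.05 the count was also 0 of 6, against 17.3% of all tested miRNAs. DESeq2 likewise called 0 of 6, against 5.57% of the 305 miRNAs it adjusted. The levels of the genotypes overlapped for all 6 arms, while 2.32% of tested miRNAs had levels that did not overlap. Fold changes are p53-/- over p53+/+ on the log2 scale. The family median was 0.03, beside -0.01 over all tested miRNAs, with 4 arms above 0 and 2 below.

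miR-148a-3p, the arm reported to repress Abca1, ranged from 18890.4 to 34267 normalised CPM in p53-/- livers, with a median of 31155. In p53+/+ libraries 1 to 5 it stood at 25497, 18978, 32530.0, 32565 and 28172 normalised CPM. The genotypes overlapped, each with 1 library well below its others, p53-/- library 11 and p53+/+ library 2. Libraries 11, 2 and 1 had the lowest levels of all and also the fewest miRNA reads, at 2202415, 1905609 and 1965468. Every other library held at least 4453903 reads, and the part of depth in these levels was not tested. The log2 fold change was 0.10 (SE 0.18, adjusted p = 0.792 in edgeR), and its 95% interval runs from a ratio of 0.816 to 1.42. These values rested on between 42046 and 226529 reads per library, so counting error was small beside the spread between libraries. In bulk liver, fewer cells of a type and less RNA per cell cannot be told apart.

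miR-148b-3p ranged from 1779 to 2487 normalised CPM in p53-/- livers, with a median of 1979. In p53+/+ libraries 1 to 5 it stood at 1454, 1144, 2092, 2353 and 2391 normalised CPM. The 2 lowest values of all 11 were those of p53+/+ libraries 1 and 2, the shallowest of their genotype. The next lowest was 1779 in p53-/- library 11, the shallowest of its own. The part of depth was not tested. The log2 fold change was 0.12 (SE 0.20, adjusted p = 0.792 in edgeR), with a 95% interval from a ratio of 0.805 to 1.46. Without libraries 1 and 2 it turned to -0.12 (adjusted p = 0.737 in edgeR).

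miR-152-3p ranged from 364 to 617 normalised CPM in p53-/- livers, with a median of 488. In p53+/+ libraries 1 to 5 it stood at 459, 405, 658, 539 and 488 normalised CPM. Both medians were 488, the genotypes overlapped, and the lowest library was again p53-/- library 11. The log2 fold change was -0.02 (SE 0.18, adjusted p = 0.973 in edgeR), with a 95% interval from a ratio of 0.751 to 1.29. Among the 6 arms it varied least within genotypes, with an SD of 0.29 on the log2 scale, against a median of 0.42 over all tested miRNAs. The other arms had SDs between 0.32 for miR-148a-5p and 0.40 for miR-152-5p.

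The minor 5p arms were sparser. miR-148a-5p had the smallest p of the family: it ranged from 145 to 259 normalised CPM in p53-/- livers, with a median of 222. In p53+/+ libraries 1 to 5 it stood at 307, 206, 235, 314 and 236 normalised CPM. p53+/+ libraries 1 and 4 were highest, p53-/- libraries 6 and 11 lowest, and the genotypes overlapped between 206 and 259. The log2 fold change was -0.30 (SE 0.19, adjusted p = 0.468 in edgeR), with a 95% interval from a ratio of 0.611 to 1.08.

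miR-148b-5p had only 17 to 109 reads per library, and miR-152-5p 25 to 144. miR-148b-5p averaged 12.4 ± 3.25 normalised CPM in p53-/- livers (SD, n = 6) and 12.0 ± 2.86 in p53+/+ livers (SD, n = 5). edgeR put its log2 fold change at 0.05 (SE 0.24, adjusted p = 0.951). miR-152-5p averaged 14.4 ± 4.36 normalised CPM in p53-/- livers and 14.2 ± 3.73 in p53+/+ livers, and edgeR put its log2 fold change at 0.02 (SE 0.26, adjusted p = 0.986). Their 95% intervals, from ratios of 0.722 to 1.48 and 0.691 to 1.48, were the widest of the family on the log2 scale.

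**Figure D2:**
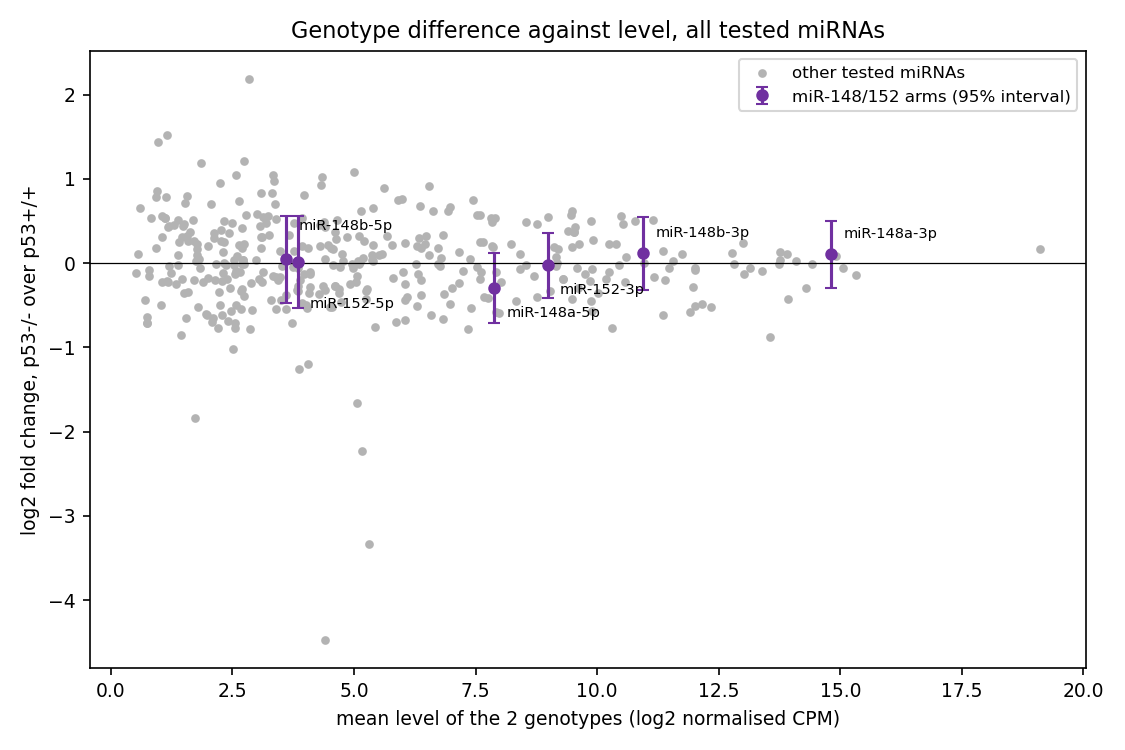
Log2 fold change, p53-/- over p53+/+ (vertical axis), against the mean level of the genotypes in log2 normalised CPM (horizontal axis) for 388 tested miRNAs (grey). The 6 family arms (purple, with 95% intervals) lie at ranks 5 to 235 of 388 by level and all their intervals include 0, with miR-148a-5p the farthest from it at -0.30.

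The arms of a hairpin start as a single transcript, and usually the guide arm is kept while the other is degraded. The hairpins are shown to place the arms, with both mature arms in capitals, the 5p first, and the RNA written 5′ to 3′ (RefSeq, GRCm38.p6).
Mir148a: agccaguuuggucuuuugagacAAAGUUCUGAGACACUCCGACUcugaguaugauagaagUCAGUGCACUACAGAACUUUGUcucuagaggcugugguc
Mir148b: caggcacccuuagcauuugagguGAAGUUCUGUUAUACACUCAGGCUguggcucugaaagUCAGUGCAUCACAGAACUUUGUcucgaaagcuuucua
Mir152: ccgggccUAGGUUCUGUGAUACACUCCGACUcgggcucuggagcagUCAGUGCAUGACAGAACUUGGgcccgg

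In all 3 hairpins the 3p arm was the major one in every library, but to different degrees. The 5p arm made up 0.714 ± 0.118% of miR-148a reads in p53-/- livers (SD, n = 6) and 0.954 ± 0.188% in p53+/+ livers (SD, n = 5). For miR-148b it was 0.610 ± 0.170% in p53-/- livers and 0.643 ± 0.081% in p53+/+ livers. For miR-152 it was 2.91 ± 1.04% in p53-/- livers and 2.75 ± 0.737% in p53+/+ livers, and in each of the 11 libraries miR-152 had the largest 5p share of the 3 hairpins.

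The miR-148a arm ratio leaned toward the 3p arm in p53-/- livers without passing. Its 3p arm had between 119 and 203 times the reads of the 5p arm in p53-/- livers, with a median of 132. In p53+/+ libraries 1 to 5 the ratio was 83.0, 92.2, 138, 104 and 119. p53-/- libraries 7, 8, 10, 11 and 12 lay between 119 and 142, inside or just above the p53+/+ range, and library 6 alone reached 203. In 5p shares, library 6 had 0.490% (95% Wilson interval 0.456% to 0.528%) and p53+/+ library 1, at the other end, 1.19% (1.10% to 1.28%), intervals that cover counting error only, since reads carry no molecular identifiers. The log2 ratio was higher by 0.42 in p53-/- livers (SE 0.21, 95% interval -0.04 to 0.88, adjusted p = 0.358 in limma over the 99 hairpin stems with both arms counted). The unadjusted p of the two-sided exact permutation test was 0.0303 and that of limma 0.0722. Without p53+/+ libraries 1 and 2 the difference was 0.24 (adjusted p = 0.751 in limma).

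Of the 99 stems, 0 passed in limma (0% called), with 14 at an unadjusted p under 0.05, and 0 passed in the exact permutation test, with 11 at an unadjusted p under 0.05. For miR-148b the log2 ratio differed by 0.12 (SE 0.22, 95% interval -0.36 to 0.60, adjusted p = 0.760 in limma). For miR-152 it differed by -0.02 (SE 0.30, 95% interval -0.66 to 0.61, adjusted p = 0.970 in limma). The highest miR-152 ratio, 74.8, was again that of p53-/- library 6. Library 6 was the most one-sided library for 10 of the 99 stems, while p53+/+ library 1 was so for 18 and p53-/- library 11 for 16.

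**Figure D3:**
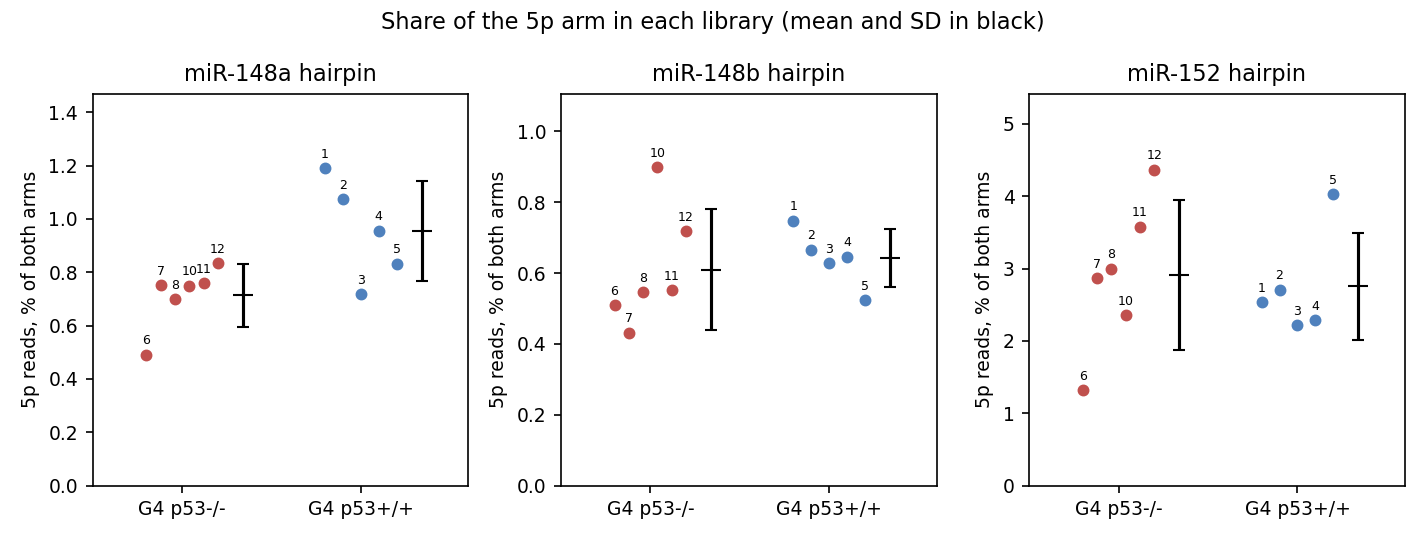
Reads of the 5p arm as a percent of both arms of each hairpin (vertical axes from 0) in p53-/- livers (red, left) and p53+/+ livers (blue, right), with library numbers and the mean and SD in black. For miR-148a, p53-/- library 6 is lowest at 0.490% and p53+/+ libraries 1 and 2 are highest at 1.19% and 1.07%.

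Because the 3 3p arms share a seed, their summed reads give the size of a pool that can bind the same seed matches. That pool held 3.12 ± 0.369% of all miRNA reads in p53-/- livers (SD, n = 6) and 3.03 ± 0.460% in p53+/+ livers (SD, n = 5). It ran from 2.62% in library 11 to 3.67% in library 7 among p53-/- livers, and from 2.39% in library 2 to 3.62% in library 3 among p53+/+ livers. These ranges overlapped almost fully. miR-122-5p, the main hepatocyte miRNA, took 58.0 ± 4.21% of reads in p53-/- livers and 54.4 ± 1.95% in p53+/+ livers, which lowers the room left for every other miRNA. Of the reads other than miR-122-5p, the pool held 7.52 ± 1.19% in p53-/- livers and 6.67 ± 1.18% in p53+/+ livers, still within the spread between libraries.

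The make-up of the pool overlapped between the genotypes. miR-148a-3p supplied between 89.8% and 93.5% of it in p53-/- livers and between 90.7% and 93.0% in p53+/+ livers. miR-148b-3p supplied 6.55 ± 1.38% in p53-/- livers and 6.23 ± 0.962% in p53+/+ livers. miR-152-3p supplied 1.57 ± 0.253% in p53-/- livers and 1.72 ± 0.194% in p53+/+ livers.

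**Figure D4:**
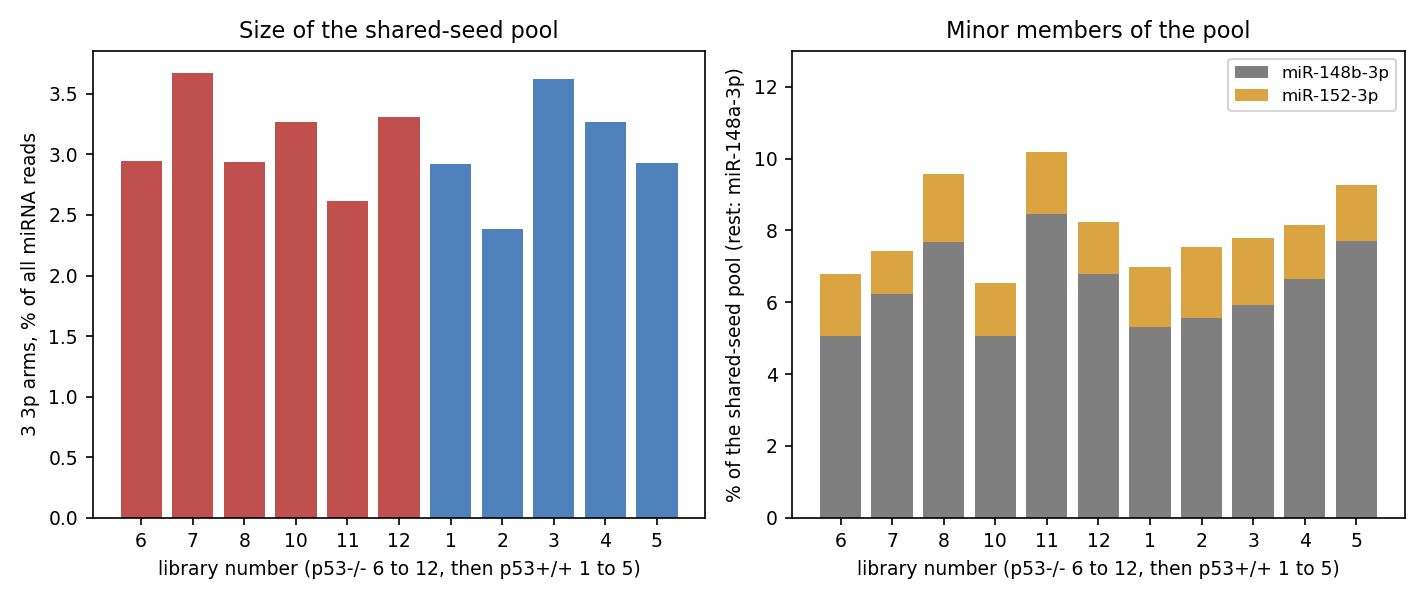
Left, reads of the 3 3p arms as a percent of all miRNA reads per library (p53-/- red, p53+/+ blue). Right, percent of that pool supplied by miR-148b-3p (grey) and miR-152-3p (yellow), the rest being miR-148a-3p. The pool lies between 2.39% and 3.67% of reads, and miR-148b-3p between 5.05% and 8.46% of the pool.

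Ratios between the 3p arms within a library need no scaling, and 3 were compared between genotypes. The ratio of miR-148a-3p to miR-152-3p ran from 48.0 to 76.8 in p53-/- livers and from 46.8 to 60.4 in p53+/+ livers, a difference of 0.13 on the log2 scale (two-sided exact permutation p = 0.331, adjusted over the 3 ratios 0.513). miR-148a-3p to miR-148b-3p ran from 10.6 to 18.5 in p53-/- livers and from 11.8 to 17.5 in p53+/+ livers, a log2 difference of -0.06 (exact permutation p = 0.732, adjusted 0.732). miR-148b-3p to miR-152-3p ran from 2.90 to 5.17 in p53-/- livers and from 2.82 to 4.90 in p53+/+ livers, a log2 difference of 0.19 (exact permutation p = 0.342, adjusted 0.513). None of the ratios differed beyond the spread between libraries, whose SDs lay between 0.15 and 0.34 on the log2 scale.

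Whether family arms moved together from library to library was examined in 6 relations of log2 normalised CPM over the 11 libraries, which share the scaling of each library. The tightest was between the intergenic miR-148a-3p and the Copz2-hosted miR-152-3p (Pearson r = 0.74, permutation p = 0.00844, adjusted over the 6 relations 0.0506; Spearman rho = 0.59, permutation p = 0.0603, adjusted 0.229). Without libraries 11 and 2, r was 0.40, and leaving out the extremes of an arm can itself change r. These libraries lay farthest from the median of miR-148a-3p and were among the shallowest. As a description, r was 0.68 among the 6 p53-/- libraries and 0.68 without p53+/+ libraries 1 and 2. miR-148a-3p and miR-148b-3p had r = 0.65 (permutation p = 0.0320, adjusted 0.0716; rho = 0.37, permutation p = 0.260, adjusted 0.312), and 0.27 without the same libraries. miR-148b-3p and miR-152-3p had r = 0.43 (permutation p = 0.187, adjusted 0.225; rho = 0.40, permutation p = 0.227, adjusted 0.312), and 0.19 without libraries 2 and 1. None of the 6 relations passed after adjustment.

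Between the arms of a hairpin, r lay between -0.05 and 0.63. It was 0.45 for miR-148a-3p with miR-148a-5p (permutation p = 0.154, adjusted 0.225; rho = 0.40, p = 0.224, adjusted 0.312) and -0.22 without libraries 11 and 2. It was 0.63 for the miR-148b arms (permutation p = 0.0358, adjusted 0.0716; rho = 0.56, p = 0.0764, adjusted 0.229) and 0.32 without libraries 1 and 2. For the miR-152 arms it was -0.05 (permutation p = 0.894, adjusted 0.894; rho = -0.04, p = 0.925, adjusted 0.925) and -0.14 without libraries 3 and 11. As a description, r among the p53-/- and among the p53+/+ libraries was 0.69 and 0.52 for the miR-148a arms. It was 0.23 and 0.93 for the miR-148b arms, and -0.25 and 0.34 for the miR-152 arms. Without p53+/+ libraries 1 and 2, r was 0.65 for the miR-148a arms and -0.20 for the miR-152 arms.

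The miRNAs whose library-to-library pattern was most like each 3p arm were found by Pearson r of log2 normalised CPM over the 11 libraries after subtracting genotype means, as a description with no test. miR-148a-3p was most like let-7f-2-3p (r = 0.88), miR-30a-3p (0.87) and let-7f-5p (0.85). miR-152-3p was most like miR-101a-3p (0.91), miR-322-3p (0.90) and also miR-30a-3p (0.81). miR-148b-3p was most like miR-1839-5p (0.90), miR-409-5p (0.88) and miR-361-3p (0.87), and these values were 0.74, 0.78 and 0.62 without p53+/+ libraries 1 and 2. The least alike were miR-6240 (-0.83) and miR-5132-5p (-0.77) for miR-148a-3p, miR-466i-5p (-0.87) and miR-669o-3p (-0.85) for miR-148b-3p, and miR-99a-3p (-0.71) and miR-423-3p (-0.69) for miR-152-3p. Without p53+/+ libraries 1 and 2, miR-466i-5p was at -0.37 and miR-669o-3p at -0.48.

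Markers of other tissues differed between libraries, and pancreas matters here because it is rich in miR-148a. The 4 pancreas miRNAs (miR-217-5p, miR-216a-5p, miR-216b-5p and miR-375-3p) summed to between 6.75 and 27.5 normalised CPM in p53-/- livers and between 2.86 and 410 in p53+/+ livers. The highest sum, in p53+/+ library 5, stood beside a miR-148a-3p level of 28172, the median of its genotype, and the lowest, in library 1, beside 25497. miR-217-5p, miR-216a-5p and miR-216b-5p were all at 0 in library 1 and in p53-/- library 10, where miR-148a-3p was highest at 34267. Without library 5 the log2 fold change of miR-148a-3p was 0.09, against 0.10 with it. p53+/+ libraries 2 and 3, still included there, had pancreas sums of 88.0 and 84.3. The part of pancreas tissue in the level of miR-148a-3p was not tested. The 2 pancreas miRNAs tested were lower in p53-/- livers at an unadjusted p under 0.05 in edgeR, against 17.3% of all tested miRNAs. Neither passed (adjusted p = 0.174 for both in edgeR). DESeq2 called miR-217-5p (adjusted p = 0.0407), against 5.57% of all miRNAs it adjusted. Its levels overlapped, at 0, 22.1, 17.1, 0.505 and 164 normalised CPM in p53+/+ libraries 1 to 5 and between 0 and 2.69 in p53-/- livers.

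The liver identity of the libraries was clear from miR-122-5p. Summed over the 4 detected hepatocyte miRNAs, levels ran from 468813 to 811813 normalised CPM in p53-/- livers and from 488141 to 673925 in p53+/+ livers. Most of that sum was miR-122-5p, and of the 4 miRNAs 2 had log2 fold changes above 0 and 2 below. The smallest p was that of miR-194-5p, which averaged 4243 normalised CPM in p53-/- livers and 6088 in p53+/+ livers (adjusted p = 0.190 in edgeR, 0.0786 in DESeq2). Leukocyte miRNAs (6 of 6 detected) summed to between 746 and 1190.1 in p53-/- livers and between 805 and 1822 in p53+/+ livers. Most of that sum was miR-146a-5p, which averaged 768 normalised CPM in p53-/- livers and 1141 in p53+/+ livers (adjusted p = 0.190 in edgeR). Of the same list, miR-150-5p averaged 101 normalised CPM in p53-/- livers and 62.8 in p53+/+ livers (adjusted p = 0.174 in edgeR and 0.0494 in DESeq2). Mesenchymal and stellate miRNAs (6 of 6) summed to between 6219 and 7196 in p53-/- livers and between 5452 and 9569 in p53+/+ livers, with miR-199a-3p and miR-199b-3p, which share nearly all their reads, counted both. The endothelial miR-126 arms summed to between 5772 and 10477 in p53-/- livers and between 6012 and 11013 in p53+/+ livers. Erythroid sums ran from 591 to 1336 in p53-/- livers and from 528 to 1399 in p53+/+ livers. They were mostly miR-486-5p, which averaged 831 normalised CPM in p53-/- livers and 643 in p53+/+ livers (adjusted p = 0.549 in edgeR). In the other direction, miR-451a averaged 105 in p53-/- livers and 147 in p53+/+ livers (adjusted p = 0.221 in edgeR). Epithelial and biliary sums ran from 661 to 2223 in p53-/- livers and from 810 to 2745 in p53+/+ livers. Of the 5 epithelial and biliary miRNAs, 3 were at an unadjusted p under 0.05, all lower in p53-/- livers, against 17.3% of all tested miRNAs. After adjustment 0 passed in edgeR, and 1 did in DESeq2 (5.57% of all miRNAs it adjusted), miR-429-3p at an adjusted p of 0.0494. The part of these cell types in the levels of the family was not tested.

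Among miRNAs with a RefSeq sequence, few others had related bases. The search covered 317 of the 388 tested miRNAs, and those without a sequence were not searched. The hexamer AGUGCA within bases 1 to 9, read on the miRNA strand only, occurred in 12 of the 1029 sequences (1.17%), namely the 3 family 3p arms and 9 others. Of these 9, 2 passed the filter. miR-130a-3p, whose seed is shifted by 1 base against the family's, averaged 52.5 normalised CPM in p53-/- livers and 59.7 in p53+/+ livers (log2 fold change -0.18, adjusted p = 0.739 in edgeR). miR-350-5p averaged 5.79 normalised CPM in p53-/- livers and 7.62 in p53+/+ livers (log2 fold change -0.39, adjusted p = 0.575 in edgeR). Both were far below miR-148a-3p, and miR-130b-3p, another miRNA reported to repress Abca1, had at most 4 reads in a library.

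Among 9 miRNAs reported to repress DNA methyltransferases other than through the family, 9 were tested, and 0 rose and 0 fell in edgeR, with 2 of 9 at an unadjusted p under 0.05, against 17.3% of all tested miRNAs. Values were below 0 for 7 of 9 (median -0.06), against 198 of all 388 (median -0.01). The smallest p belonged to miR-140-5p at -0.69 (adjusted p = 0.174 in edgeR, 0.0494 in DESeq2) and miR-29a-3p at -0.58 (adjusted p = 0.174 in edgeR, 0.0685 in DESeq2). The latter targets the de novo methyltransferases and collagens. Without p53+/+ libraries 1 and 2, miR-140-5p was at -0.39 and miR-29a-3p at -0.23 (adjusted p = 0.435 and 0.657 in edgeR). miR-29c-3p was at -0.35 and miR-101a-3p at 0.19, for which edgeR gave an adjusted p of 0.460 and 0.580.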

How the data were processed

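Small RNA of 11 mouse liver libraries was sequenced, all on lane 4 per the labels. Per the labels' protocols, RNA came from 50 mg of tissue. The deposited files hold counts of reads for each pair of mature miRNA and hairpin. They also hold these counts as CPM, scaled by the authors to a fixed total per library. The submitters' processing notes name GRCm38 and limma; which aligner and counter were run is not given in the sources used here. In all, the table had 1418 entries for 1281 names; names with several hairpins were counted once, by their highest count, and 0 family members were among them. Totals per library ran from 1905609 to 6682492 counts. No pair of libraries within a genotype was close to sampling noise (the smallest chi-square, per degree of freedom, was 98.2), so none were merged. That measure covers counting error only, so it cannot show whether libraries come from separate animals.

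The genotypes were compared by edgeR's quasi-likelihood test (version 4.0.16, under R 4.3.3) with filterByExpr, TMM factors and Benjamini-Hochberg adjustment over 388 miRNAs at a threshold of 0.05. The principal components were taken over the same miRNAs. Arm ratios were tested with limma 3.58.1 on log2 ratios with 0.5 counts added, over 99 stems with a mean of at least 10 counts in both arms. Ratios between 3p arms used exact permutation over 462 assignments (smallest p 0.00216), and correlations used 100000 permutations. DESeq2 1.42.0, other scalings, filters, the authors' CPM in limma and omitted libraries were alternatives. Only the edgeR test and the limma test of arm ratios were tried on simulated data, the latter with shifts larger than the family's differences. The other steps were not.

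The members, lists and rules were chosen with earlier results of these data known. Named miRNAs were all members, the 3 most and 2 least alike to each 3p arm, tested miRNAs with AGUGCA in bases 1 to 9, and the 4 smallest p-values of a list of miRNAs reported to act on DNA methyltransferases. Another list is not reported here.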

Additional observations from a re-analysis of the deposited data

Results flagged for a closer look

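Of 48 groups of values checked by Dixon's test for a library far from the others of its genotype, 4 stood out. The rate of about 1 in 20 by chance holds for independent, normally distributed values. These levels, sums and ratios share counts and can be skewed, so that rate is only a rough guide. The 3p over 5p ratio of miR-148a in p53-/- library 6 was 203, next to 142 in the nearest p53-/- library. The miR-152 ratio of the same library was 74.8, next to 41.4. For miR-148b its ratio of 195 was not apart. The total of p53-/- library 11 was 2202415 counts, where the next p53-/- library had 5243933. The pancreas miRNAs of p53+/+ library 5 summed to 410 normalised CPM, next to 88.0 in library 2. Without library 6 the miR-148a arm difference was 0.31 on the log2 scale. The causes were not tested.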

How the results depend on the processing

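No family arm was called under any of the 20 alternatives. No paired analysis was possible because the genotypes share no replicate number. miR-148a-5p was below 0 in each, and the miR-148a arm ratio difference above 0 in every alternative run for it. Differences near 0 turned sign. Without p53+/+ libraries 1 and 2 the log2 fold changes were -0.023 for miR-148a-3p, -0.12 for miR-148b-3p, -0.10 for miR-148b-5p, -0.12 for miR-152-5p and 0.079 for miR-130a-3p, and the miR-148a-3p over miR-148b-3p difference was 0.068; that of miR-148b-3p over miR-152-3p was 0.015 in place of 0.19, and the pool difference -0.150 points in place of 0.098. With only the p53-/- libraries of HA numbers above 500 (an unexplained number in the labels), miR-148a-3p was at -0.055, miR-148b-3p at -0.0068 and the miR-148b arm ratio at -0.15. miR-152-5p was at -0.024 in DESeq2, -0.015 with RLE factors, -0.00065 with library totals, -0.019 with no filter, -0.0029 at a mean count of at least 50 and -0.035 from the authors' CPM. The miR-152 arm ratio was 0.015 with 5 counts added. DESeq2 called miR-140-5p at -0.73. Without miR-122-5p in the total, the pool difference was 0.850 percentage points in place of 0.098.

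With a library left out, log2 fold changes of miR-148a-3p ran from -0.024, where p53+/+ library 2 was omitted, to 0.24, where p53-/- library 11 was; they ran from -0.41 to -0.19 for miR-148a-5p, -0.049 (without p53+/+ library 2) to 0.19 for miR-148b-3p, -0.10 to 0.12 for miR-148b-5p, -0.13 to 0.080 (without p53-/- library 11) for miR-152-3p, -0.15 to 0.14 for miR-152-5p and -0.31 to 0.057 (without p53+/+ library 2) for miR-130a-3p. Arm ratio differences ran from 0.31 to 0.52 for miR-148a, 0.03 to 0.24 for miR-148b and -0.24 to 0.12 for miR-152. Ratios between 3p arms ran from 0.06 to 0.19 (miR-148a over miR-152), -0.15 to 0.025 (miR-148a over miR-148b) and 0.11 to 0.31 (miR-148b over miR-152), and the pool difference from -0.06 to 0.25 points. The cause was not tested.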
